A study of Bos taurus with 15 samples.

Results

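The 2'-5' oligoadenylate synthetases (OAS) were followed in cultured cells scraped from the bovine uterine lining and labelled endometrial epithelial, kept with or without embryos. Of the 5 OAS genes sought by name in the deposited table, OAS1X, OAS1Y, OAS2 and OASL had a row among 19994 genes. OAS1Z was not analysed here. Requiring 5 or more libraries with a normalized count of 10 or more left 12559 genes and kept OAS1X, OAS1Y and OAS2, while OASL did not pass it.

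In the contact group, morulae of day 5.5 produced in vitro were placed 15 ± 1 to a well directly onto the cells. For no contact the morulae sat in a transwell, apart from the cells. Control wells had cells and no embryos. All 3 groups had 5 libraries, wells that carried transwells, the same serum-supplemented medium and 48 h of culture. The cells of every group came from scrapings of 4 uteri of Bos taurus beef cows, pooled and used at passage 3, so the spread between libraries is that between cultures of pooled cells and not between animals. Each experiment ran all conditions on one plate, but the labels do not tie libraries to plates. Their treatment text also describes embryos cultured without cells, which are not analysed here.

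An OAS enzyme that binds double-stranded RNA makes short chains of adenylate in a 2'-5' linkage, called 2-5A. The 2-5A chains act as a second messenger of the antiviral response, at the end of which RNA is degraded and translation falls. Type I interferons switch the OAS genes on through a transcription factor complex that holds STAT2 and IRF9, and in ruminants the embryo's trophectoderm secretes interferon tau, the signal that maintains the corpus luteum.

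Assigned reads ranged from 4195091 to 19268029 per library in the contact group, from 12938091 to 19792557 in the no contact group and from 15507719 to 18618467 in the control group. Contact libraries 97 and 108 were the shallow ones, with 4195091 and 6104652 reads. On the second principal component, which held 12.92% of the variance, no contact library 90 stood apart at 32.58, while the other libraries lay between -19.53 (contact library 97) and 12.23. The labelled cell type was only partly matched by its markers. The keratins KRT8, KRT18 and KRT19 were abundant, with 34118, 6950 and 12878 normalized counts in contact, 35842, 8170 and 14313 in no contact and 33591, 8214 and 14077 in control, and the epithelial cadherin CDH1 averaged 1473, 1346 and 1270 in the same order, but EPCAM averaged 0.672, 0.714 and 0.513. The stromal genes COL1A1, COL1A2 and DCN averaged 94506, 104802 and 40273 in contact, 94780, 99490 and 36458 in no contact and 102559, 109188 and 34350 in control, while THY1, of the same list, averaged 2.39, 3.68 and 3.05. The summed level of the 9 stromal markers was 24205 to 27465 RPM (reads per 1000000 assigned reads) in contact, 21359 to 25296 in no contact and 24054 to 25611 in control. That of the 9 epithelial markers was 3374 to 4446, 3482 to 4673 and 3527 to 4477 in the same order, so both sums overlapped between the groups. Among markers of other cells, contact against control gave limma calls for LUM (0.42, adjusted p = 0.0135), the leukocyte marker CD14 (-0.52, adjusted p = 0.00329) and the embryo marker SSLP1 (0.70, adjusted p = 0.0205). CD14 was also lower in contact than no contact (-0.41, limma adjusted p = 0.0345), and the part of these genes in the results was not tested. The defining leukocyte gene PTPRC averaged 0.146 normalized counts for contact, 0 for no contact and 0.350 for control. Libraries measure a mixture of cells, in which fewer cells of one type and less RNA per cell cannot be told apart.

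OAS1X, OAS1Y and OAS2 were low in cells alone, with 8 to 15 reads a library for OAS2 and 102 to 131 for OAS1Y, and abundant with embryos, and they were higher with contact than across a transwell. Together the OAS genes took 1287 ± 81.4 RPM for contact, 767.9 ± 60.2 for no contact and 10.99 ± 1.25 for control (SD, n = 5 each). The lowest contact library had 1216 RPM and the highest no contact library 854.7, so the groups did not overlap.

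OAS1X (ENSBTAG00000037527), one of the OAS1 genes of cattle, had normalized counts of 10187, 8956, 8442, 8375 and 8328 in contact libraries 28, 87, 97, 107 and 108. It had 4374, 5113, 3952, 5448 and 4733 in no contact libraries 30, 89, 90, 109 and 110, and 52.1, 55.2, 51.3, 37.6 and 56.0 in control libraries BEEC.24, BEEC.83, BEEC.84, BEEC.103 and BEEC.104. Each contact library lay above each no contact library, and each of these above every control library. The means were 8857 ± 785 for contact, 4724 ± 591 for no contact and 50.4 ± 7.46 for control (SD, n = 5 each). OAS1X rose by 7.44 ± 0.10 (SE) on the log2 scale in contact against control, with a limma adjusted p of 3.39e-22, and by 6.53 ± 0.10 in no contact against control, with 4.71e-21. Contact exceeded no contact by 0.91 ± 0.10 (limma adjusted p = 6.38e-06). A normalized count here is the number of reads divided by one size factor per library, and differences are in log2(normalized count + 1), adjusted over all 12559 genes with a threshold of 0.05.

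OAS1Y (ENSBTAG00000039861), its close paralog, had 9931, 8812, 8166, 8583 and 8351 normalized counts in the contact libraries, in the same order. Its values in the no contact libraries were 5782, 6269, 6014, 6408 and 5916, and in the control libraries 104.2, 119.1, 112.0, 82.99 and 92.2. Again no library of one group overlapped another group. The means were 8769 ± 694 for contact, 6078 ± 256 for no contact and 102.1 ± 14.6 for control (SD, n = 5 each). OAS1Y differed by 5.89 ± 0.08 (SE) in no contact against control (limma adjusted p = 4.93e-22) and by 0.53 ± 0.08 in contact against no contact (limma adjusted p = 0.000348). Its difference of 6.42 ± 0.08 between contact and control had the smallest p of all genes tested, and OAS1X the next one. By size of the rise in that comparison, OAS1Y ranked only 17 and OAS1X 11 among the genes tested.

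OAS2 (ENSBTAG00000014628), the larger synthetase of the family with a pair of OAS units in one chain, was counted with fewer reads. Its normalized counts were 952.4, 1034, 783.0, 815.6 and 830.2 in the contact libraries, 493.5, 536.9, 634.6, 482.0 and 529.1 in the no contact libraries, and 7.33, 12.6, 12.8, 10.96 and 7.23 in the control libraries. The groups stood in the same order without overlap. The control values rest on 9, 13, 15, 14 and 8 reads, and OAS2 passed the filter only through the embryo groups, since 3 of the 5 control libraries reached 10. Against control its test therefore describes a gene that had to be high with embryos to be tested. With no filter on low values its limma adjusted p was 1.61e-16 for contact and 1.8e-15 for no contact. The differences could not change in that fit, since each gene is fitted by itself, so their sameness is no support. OAS2 was higher by 6.33 ± 0.14 (SE) in contact than in control (limma adjusted p = 5.23e-19), by 5.61 ± 0.14 in no contact than in control (8.75e-18) and by 0.72 ± 0.14 in contact than in no contact (limma adjusted p = 0.00312).

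**Figure D1:**
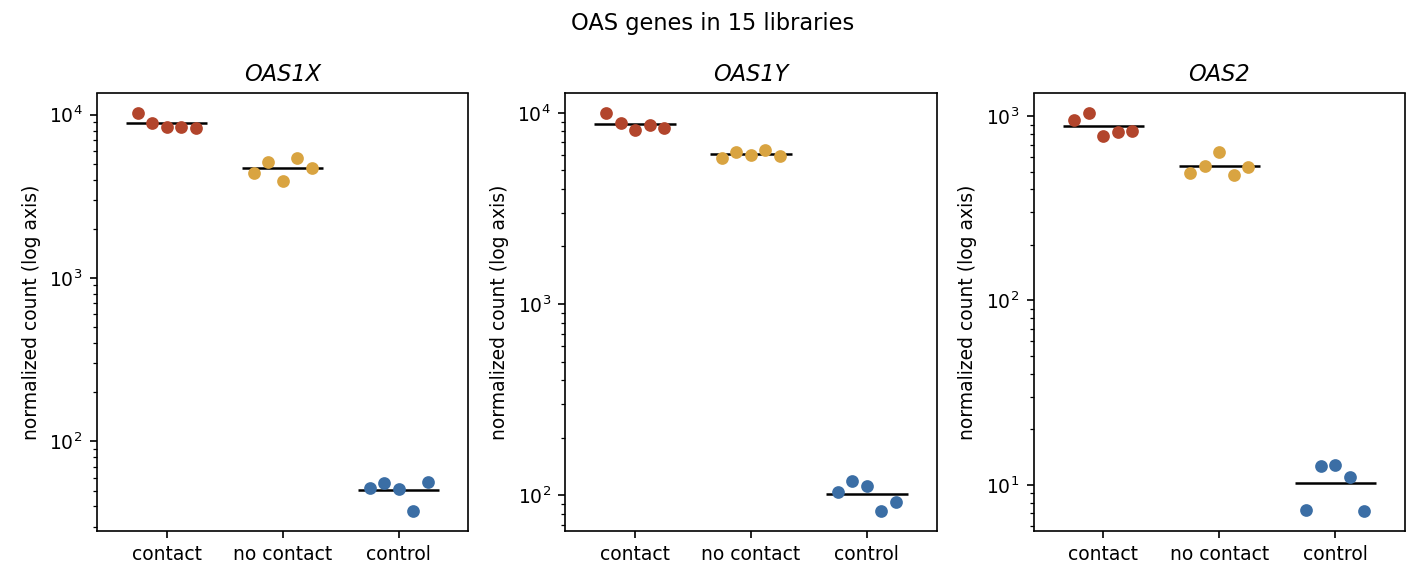
Normalized counts of OAS1X, OAS1Y and OAS2 on a log axis, one point per library (ordered by library number within a group) and a black line at the group mean, n = 5 per group. For each gene the contact points lie above the no contact points and these above the control points.

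The calls stand against a background of 7.17% of tested genes called higher in contact than control, 1.48% in no contact than control and 3.73% in contact than no contact, with 5.78%, 0.111% and 1.82% called lower. Every library of the first group exceeded every library of the second for 7.45%, 1.98% and 3.44% of tested genes in these comparisons. Both comparisons with control share the same 5 control libraries. The median difference over all tested genes was -0.01, -0.01 and 0.01. As ratios of group means, contact over control was 176-fold for OAS1X, 85.9-fold for OAS1Y and 86.7-fold for OAS2, and no contact over control was 93.6-fold, 59.5-fold and 52.5-fold. In the authors' deposited table the log2 changes of OAS1X, given as control over embryo group, are -6.23 for contact and -5.40 for no contact. For OAS1Y the authors' deposited table gives -5.82 and -5.31, and for OAS2 -4.51 and -3.86. The authors' deposited table thus holds smaller changes than the 7.44, 6.42 and 6.33 found from its own normalized counts in contact against control. Its changes for contact over no contact are nearer, at 0.83, 0.50 and 0.65 beside 0.91, 0.53 and 0.72 here.

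The numbers in the library names form 4 blocks, of which the labels say nothing: BEEC.24 to 30, BEEC.83 to 90, 97 by itself, and BEEC.103 to 110. Within the first, second and last of these runs, OAS1X differed by 7.58, 7.37 and 7.48 between contact and control, by 6.36, 6.37 and 6.76 between no contact and control, and by 1.22, 0.99 and 0.72 between contact and no contact. For OAS1Y the contact to control differences were 6.56, 6.24 and 6.58 and the contact to no contact differences 0.78, 0.52 and 0.46. OAS2 gave 6.84, 6.24 and 6.38 in contact against control and 0.95, 0.82 and 0.70 in contact against no contact. All of these within-run differences were positive. The first run holds 1 library per group, and contact library 97 enters none of them. Without no contact library 90, the contact to no contact differences were 0.85 for OAS1X, 0.52 for OAS1Y and 0.78 for OAS2, and without both shallow contact libraries they were 0.96, 0.58 and 0.80.

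**Figure D2:**
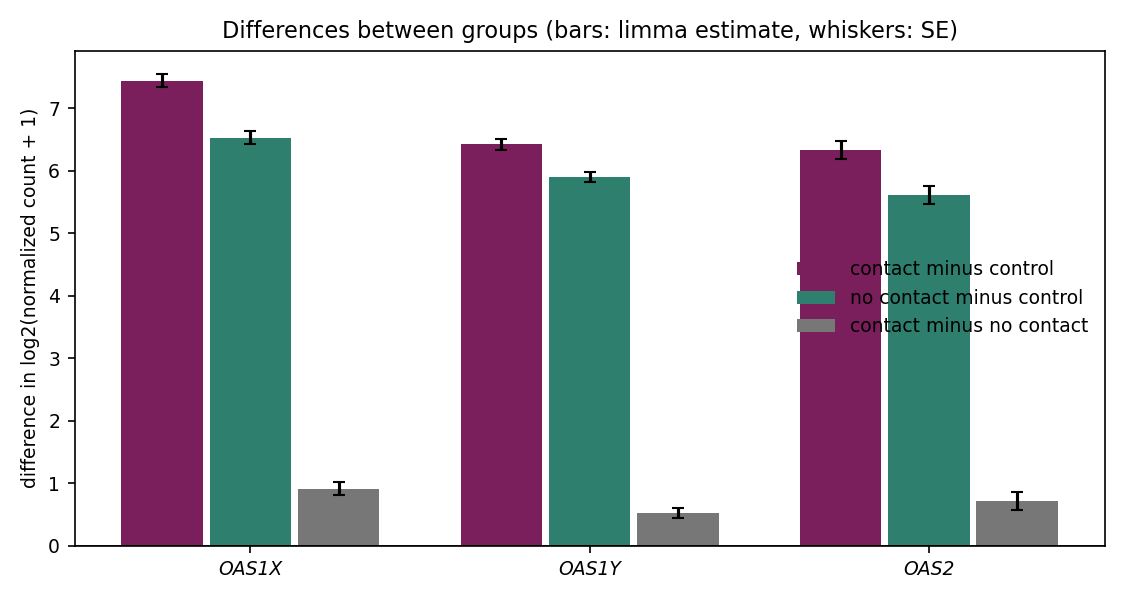
Differences in log2(normalized count + 1) between groups for the 3 tested OAS genes, as estimated by limma with its standard error (whiskers), from 5 libraries per group. Contact against control is the tallest bar of each gene, at 7.44, 6.42 and 6.33, and contact against no contact the shortest, at 0.91, 0.53 and 0.72.

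OASL (ENSBTAG00000003297), an OAS-like protein with ubiquitin-like domains that in humans does not make 2-5A, was all but undetected. It had 0 reads in each contact and no contact library and 1 read in control, in library BEEC.103. With 0 of 64705888 reads in contact and 0 of 86460035 in no contact, 3 counts set limits of 0.0464 and 0.0347 RPM, and these cover counting error only. The 1 control read corresponds to 0.0116 RPM, with an exact 95% Poisson interval of 0.000294 to 0.0648. The depth limits what can be said of OASL to these bounds, and no difference between groups was detectable.

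The tested OAS genes did not change by equal amounts. The number of OAS1X reads for each OAS1Y read was 1.03, 1.02, 1.03, 0.976 and 0.997 in contact libraries 28, 87, 97, 107 and 108, against 0.757, 0.816, 0.657, 0.850 and 0.800 in no contact libraries 30, 89, 90, 109 and 110, and 0.5, 0.463, 0.458, 0.453 and 0.608 in control libraries BEEC.24, BEEC.83, BEEC.84, BEEC.103 and BEEC.104. No 2 groups overlapped, and the means were 1.01 ± 0.0234 for contact, 0.776 ± 0.0745 for no contact and 0.496 ± 0.0650 for control (SD, n = 5 each). The value of the ratio itself also holds the lengths of the genes, so only its difference between groups was compared. On the log2 scale, with 1 added to each normalized count, it was higher by 1.02 ± 0.08 (SE) in contact than control, by 0.63 ± 0.10 in no contact than control and by 0.39 ± 0.07 in contact than no contact. Each of these had an exact two-sided permutation p of 0.00794, the smallest that 5 against 5 libraries allow, and an adjusted p of 0.0179 over the 9 ratio tests. Within the 3 runs the contact to no contact difference was 0.44, 0.47 and 0.26.

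The ratio of OAS1X to OAS2 was higher by 1.10 ± 0.22 (SE) in contact than control (exact permutation p = 0.00794, adjusted p = 0.0179). OAS2 had 8 to 15 reads per control library and passed the filter only through the embryo groups. Against control, ratios with OAS2 therefore hold a gene that had to be high with embryos to be tested. With pseudocounts of 0.5 and 5 the difference from control was 1.05 and 1.45 for contact, and 0.86 and 1.25 for no contact. For no contact over control the ratio rose by 0.91 ± 0.26, with overlapping groups (exact permutation p = 0.0238, adjusted p = 0.0429). That call ended in 9 of the 10 tests that left out 1 of these libraries, with an adjusted p of up to 0.0857, and held without no contact library 90 (adjusted p = 0.0238), where the difference was 1.04. Between contact and no contact it missed the threshold, with a difference of 0.19 ± 0.15 (exact permutation p = 0.262, adjusted p = 0.295). The ratio of OAS2 to OAS1Y differed by -0.09 ± 0.17 in contact against control, -0.28 ± 0.17 in no contact against control and 0.19 ± 0.10 in contact against no contact. Their exact permutation p were 0.635, 0.151 and 0.0635, adjusted to 0.635, 0.194 and 0.0952. With a pseudocount of 5, which weighs on the few OAS2 reads of the controls, the first 2 became -0.48 and -0.67 and passed (exact permutation, adjusted p = 0.0204 and 0.0119). OAS1X and OAS1Y are close paralogs and the RefSeq models of OAS2 and OAS1Y overlap, so reads that fit more than 1 of these genes may have been counted for either or dropped, and their part in the ratios was not tested.

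**Figure D3:**
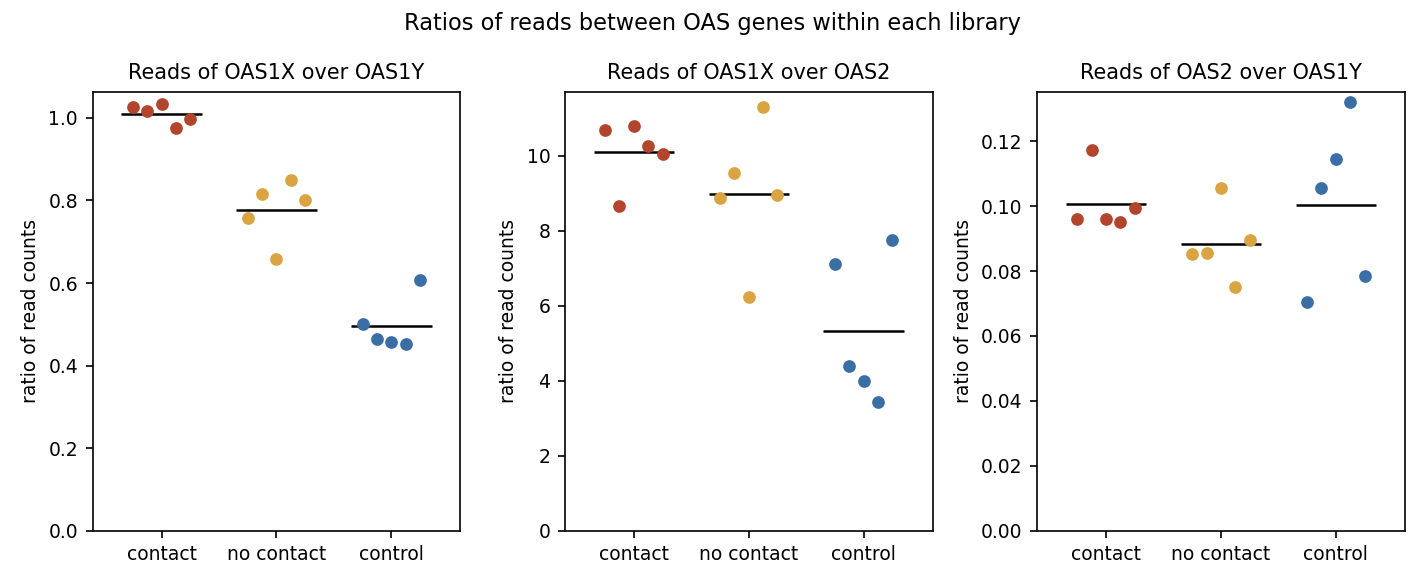
Ratios of read counts between OAS genes within each library, one point per library (ordered by library number within a group) and a black line at the group mean, n = 5 per group. OAS1X over OAS1Y averages 1.01 for contact, 0.776 for no contact and 0.496 for control, without overlap, while OAS2 over OAS1Y overlaps between all groups.

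The libraries of a group also differed among themselves, and not in the same order for each gene. In contact, library 28 was highest for OAS1X and OAS1Y, and library 87 for OAS2. In no contact, library 109 was highest for OAS1X and OAS1Y but lowest for OAS2, and library 90 was highest for OAS2 but lowest for OAS1X. The coefficient of variation in contact was 8.86% for OAS1X, 7.91% for OAS1Y and 12.0% for OAS2. In no contact it was 12.5%, 4.22% and 11.2%, and in control 14.8%, 14.3% and 27.0%.

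Genes whose products remove 2-5A or oppose its action were followed beside its synthetases. PDE12, a mitochondrial phosphodiesterase that degrades 2-5A, had 175.7 ± 35.4 normalized counts for contact, 144.6 ± 10.4 for no contact and 114.6 ± 9.77 for control, and rose by 0.59 in contact against control (limma adjusted p = 0.00193). AKAP7, whose protein in mice cleaves 2-5A, rose by 1.08 in contact against control and by 0.70 in contact against no contact (limma adjusted p = 1.29e-05 and 0.00401). ABCE1, a factor of ribosome recycling that was also described as an inhibitor of the 2-5A pathway, differed by 0.20 in contact against control and missed the threshold (limma adjusted p = 0.136). Of this list, 2 of 3 tested genes rose with contact relative to control and AKAP7 with contact relative to no contact. Over all tested genes, 7.17% and 3.73% were called higher in these comparisons. Against control, no contact gave differences of 0.33 for PDE12, 0.38 for AKAP7 and -0.02 for ABCE1, which missed the threshold (limma adjusted p = 0.351, 0.397 and 0.972).

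The list on double-stranded RNA sensing, which holds sensors and also the adaptor MAVS, the editing enzyme ADAR and the ubiquitin ligase TRIM25, rose in 9 of the 10 tested genes when contact was set against control, and in 9 for no contact against control, with medians of 3.14 and 2.45. Contact exceeded no contact in 7, with a median of 0.73. The shares of all tested genes called higher were 7.17%, 1.48% and 3.73% in these comparisons. This list, like the other pathway lists here, was chosen with earlier results of these data known. Its counts beside these shares are therefore no test of the list. EIF2AK2, the kinase PKR that halts translation, had 9469 ± 528 normalized counts for contact, 6417 ± 852 for no contact and 1129 ± 103.1 for control, and rose by 3.07 in contact against control. IFIH1, the sensor MDA5, rose by 4.74, and ZBP1, a sensor of Z-form nucleic acid, by 8.31, each in contact against control. ZBP1 passed the filter only through the embryo groups, as 2 of 5 control libraries reached 10. MAVS, the adaptor of the RNA helicases, differed by -0.08 in contact against control and -0.19 in no contact against control (limma adjusted p = 0.800 and 0.794).

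Genes that carry the interferon signal to the OAS promoters or restrain it, as USP18 does, were mixed. Of 11 tested, 6 were higher and 1 lower in contact than control, 4 higher in no contact than control, and 4 higher in contact than no contact. Among all tested genes 7.17%, 1.48% and 3.73% were called higher in these comparisons, and 5.78% lower in contact than control. STAT2 had 1561 ± 216.4 normalized counts for contact, 1024 ± 45.7 for no contact and 757.7 ± 11.9 for control, and rose by 1.03 in contact and 0.43 in no contact against control (limma adjusted p = 6.55e-10 and 0.00077). IRF9, the DNA-binding part of that complex, rose by 2.87 and 2.73, with 2864 ± 247.0 normalized counts for contact, 2615 ± 343.2 for no contact and 389.7 ± 17.4 for control, and its difference of 0.14 between contact and no contact missed the threshold (limma adjusted p = 0.356). USP18, which restrains interferon receptor signalling, rose by 5.69 and 4.93. IFNAR1, a chain of the type I interferon receptor, fell by 0.50 in contact against control (limma adjusted p = 0.00737), with 838.4 ± 78.3 normalized counts in contact and 1185 ± 79.9 in control, and missed the threshold in no contact against control (-0.36, limma adjusted p = 0.264).

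Interferon transcripts themselves were scarce. Of 14 ligand and receptor symbols of that list in the table, 10 had 0 reads in every library, as did 3511 of all 19994 genes. A second interferon tau row, IFN-TAU, was among these 10. The row IFNT had 32.1 to 89.3 normalized counts in contact, 27.3 to 70.3 in no contact and 18.8 to 71.4 in control, and its difference of 0.20 between contact and control missed the threshold (limma adjusted p = 0.769). The ranges overlapped, and interferon tau genes are near-identical copies whose reads the counting may have split. Control wells had no embryos, so the IFNT row is no measure of interferon made by embryos. Of the 14 embryo markers in the table, NANOG, UTF1 and PAG2 had 0 reads throughout, and POU5F1 averaged 0.672 normalized counts for contact, 0 for no contact and 0.157 for control. The summed embryo markers were 83.6 to 95.7 RPM in contact, 83.8 to 94.3 in no contact and 79.6 to 90.9 in control. By far the highest of these markers was GATA2, with 1167, 1234 and 1193 normalized counts in the same order. It was thus as high in control wells, which had no embryos, and the sum mainly follows GATA2 and is no measure of embryo RNA.

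Of the other genes with the OAS nucleotidyltransferase fold, CGAS, the DNA sensor that makes cyclic GMP-AMP, was the 1 of 6 tested genes called in each comparison. It had 228.3 ± 36.4 normalized counts for contact, 116.9 ± 29.0 for no contact and 39.2 ± 5.17 for control and rose by 2.51 in contact and 1.53 in no contact against control. ILF2, part of a complex that binds double-stranded RNA, differed by 0.18 in contact against control (limma adjusted p = 0.0639). Other genes of antiviral RNA decay were higher in 4, 3 and 2 of 9 tested genes in contact against control, no contact against control and contact against no contact. The shares over all tested genes were 7.17%, 1.48% and 3.73% in the same order. SAMD9 rose by 5.19 in contact and 4.05 in no contact against control, and SLFN11, which cleaves transfer RNA, by 1.63 and 0.59. The SLFN11 call for no contact lost significance in 6 of 23 alternatives, each of them a fit without 1 library (no contact 30, 89 or 109, BEEC.83, BEEC.84 or BEEC.104), with a limma adjusted p of up to 0.0847. ZC3HAV1, the zinc finger antiviral protein, rose by 0.68 and 0.43. XRN1, the main cytoplasmic exonuclease of the 5' end, differed by 0.13 in contact against control (limma adjusted p = 0.468).

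**Figure D4:**
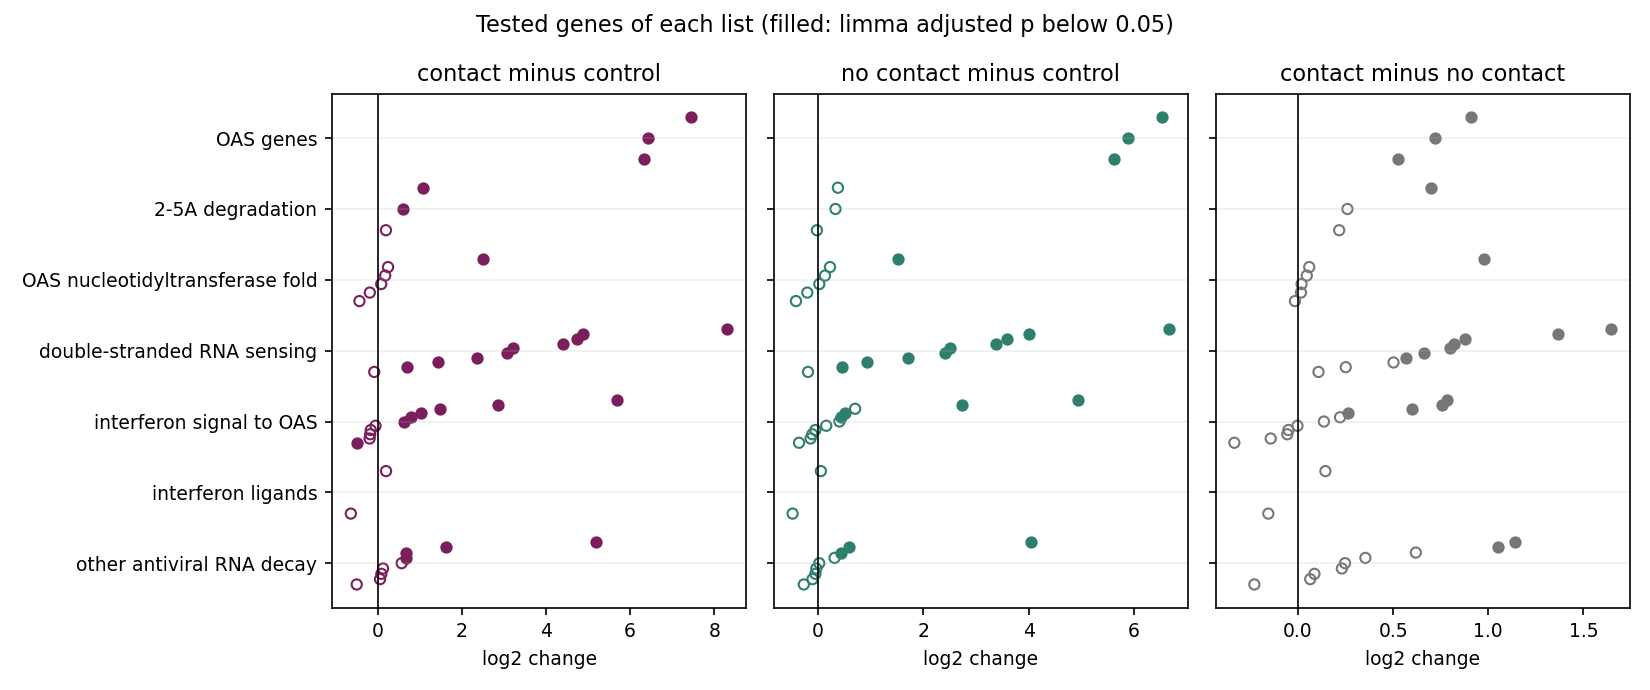
Log2 differences of each tested gene by list, one panel per comparison with its own horizontal scale. Filled points passed a limma adjusted p of 0.05 and open points did not. The 3 OAS points lie between 6.33 and 7.44 in contact against control, and in the nucleotidyltransferase list the single filled point is CGAS, at 2.51.

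In the RefSeq annotation of assembly ARS-UCD2.0, OAS2, OAS1Y, OAS1X and OAS1Z lie side by side in this order on chromosome 17, and OASL lies farther along the same chromosome. The annotation was used for gene order, for gene names by NCBI gene number and for the overlap of OAS2 and OAS1Y. The build behind the deposited counts is not given in the sources used here, so order and overlap may differ in it. Of the 20 other gene models within 5 places of an OAS gene, 11 were in the deposited table and 9 were tested. The highest of them, IQCD, differed by 0.48 in contact against control and missed the threshold (limma adjusted p = 0.107). TPCN1, an ion channel gene beside SLC8B1, fell by 0.55 in contact against control (limma adjusted p = 0.00505), and ANKRD13A, near OASL, by 0.29 (limma adjusted p = 0.00229). These were the 2 of 9 tested neighbours called lower in that comparison, and 0 were called higher. Over all tested genes 5.78% were called lower and 7.17% higher. SLC8B1, the model next to OAS2, differed by 0.01 in contact against control and 0.12 in no contact against control (limma adjusted p = 0.917 and 0.655). PTPN11, the first tested gene on the far side, differed by -0.05 and -0.21 (limma adjusted p = 0.845 and 0.670).

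**Figure D5:**
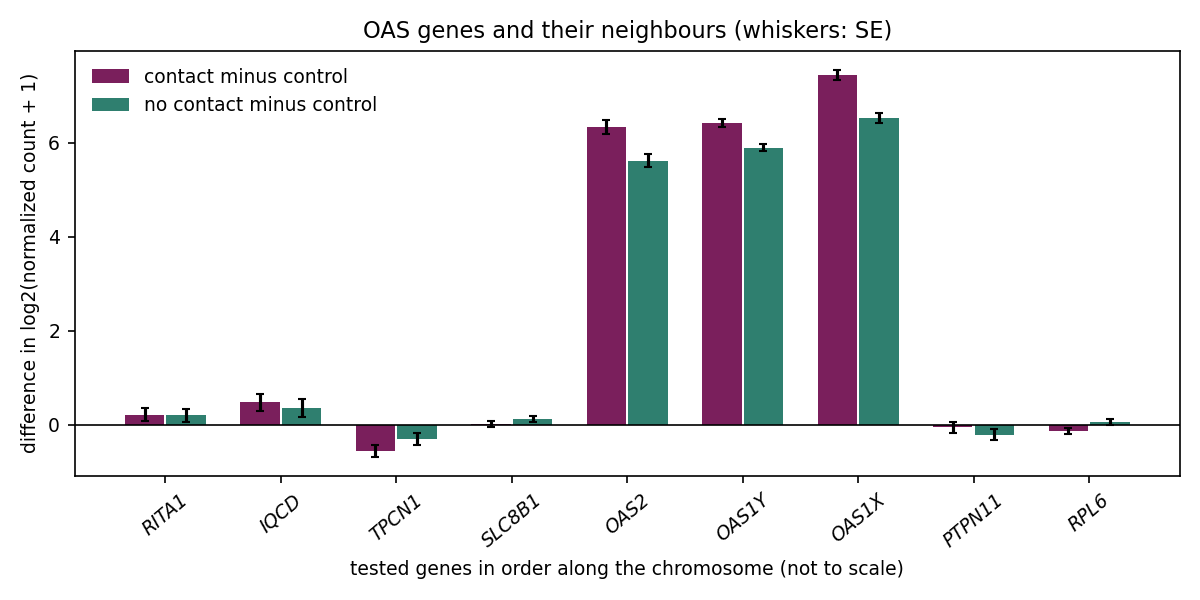
Differences in log2(normalized count + 1) against control for tested genes in their order along chromosome 17 (spacing not to scale), as estimated by limma with its standard error (whiskers). OAS2, OAS1Y and OAS1X stand at 5.61 to 7.44, and the genes on either side lie between -0.55 and 0.48.

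Profiles over the 15 libraries were compared by the root mean square difference of log2 values after centring each gene on its mean, with smaller values for more alike genes. Genes with no symbol, or with one that starts with LOC, were left out. Outside the OAS family, the nearest genes to OAS1X were IFIT1 at 0.19, MX1 at 0.35 and IFI27 at 0.38, and to OAS1Y they were IFI27 at 0.28, XAF1 at 0.29 and IFIT1 at 0.43. Outside the family OAS2 was nearest to XAF1 at 0.32, IFI27 at 0.42 and USP18 at 0.42. Among the OAS genes, OAS1Y and OAS2 differed by 0.24, OAS1X and OAS1Y by 0.44, and OAS1X and OAS2 by 0.57. The 0.24 was less than the difference of OAS1Y or OAS2 from any compared gene outside the family. OAS1X was thus closer to IFIT1 than to its paralog by this measure, a description for which no test was made. The measure was computed with a pseudocount of 1 only. With a pseudocount of 5, the log2 ratio of OAS2 to OAS1Y differed from control by -0.48 in contact and -0.67 in no contact. The closeness of OAS1Y and OAS2 may therefore depend on the pseudocount.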

How the data were processed

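Poly(A) RNA of 15 libraries, strand-specific per the labels' protocols, was read as pairs of 100 bases. The authors deposited a normalized count per gene and library, that is a signal of reads over a size factor. Their table also holds log2 fold changes, a test statistic (a score) and p-values, per the file headers. HISAT2 2.1.0, featureCounts 1.6.2 and DESeq2 1.18.1 are named, without roles, per the submitters' processing notes. No source used here gives the genome build, the annotation or how strand was counted. Dividing by the value of 1 read gave whole numbers, within 0.01, for 100% of values, and these recovered reads give the depth.

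limma 3.58.1 (R 4.3.3, trend, robust) was run on log2(normalized count + 1) of all libraries, one coefficient per group, with Benjamini-Hochberg adjustment over all genes tested. The procedure was tested on simulated data. Log2 ratios of OAS genes were compared by exact permutation (scipy 1.17.1). Alternatives used edgeR 4.0.16 and DESeq2 1.42.0 on recovered reads, other pseudocounts, no filter, the run of library numbers as a term, the 2 groups alone, and left-out libraries. Within-run values were added after seeing the data. The deposited table names 16378 genes, and RefSeq gave names to 1358 more by NCBI gene number. Named genes are the OAS members, up to 4 genes of each pathway list, the neighbours along the chromosome and the 3 nearest profiles. Members and lists were chosen with earlier results of these data known. Of 30 planned ratio tests 9 were made, since OASL and OAS1Z gave no ratio. Some genes of the lists are not reported here.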

Additional observations from a re-analysis of the deposited data

Results flagged for a closer look

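A library far from the other 4 of its group, by Dixon's test at the 95% level, was found in 14 of 141 groups of values examined, where chance gives about 1 in 20. OAS1X was low in control library BEEC.103, at 37.6 normalized counts, and the ratio of OAS2 to OAS1Y reads was high in contact library 87, at 0.117. Contact library 28 was high for ADAR (5120 normalized counts), DDX58 (8377), STAT2 (1935), SAMD9 (2841) and SLFN11 (347.2). No contact library 90 was low for TENT5C (29.1) and ZC3HAV1 (1598). AKAP7 was low in no contact library 30 (82.8) and control library BEEC.24 (71.7). MB21D2 was high in control library BEEC.104 (31.6), IFNT high in contact library 107 (89.3) and N4BP1 low in contact library 87 (1011).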

How the results depend on the processing

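The 9 log2 changes of OAS1X, OAS1Y and OAS2 kept their direction and their call in all 207 refits, with edgeR, DESeq2, other pseudocounts, no filter, the run as a term, the 2 groups alone and left-out libraries. Part of these refits could not move the difference. With no filter, in the 2 groups alone or without a library of the group not compared, only the p-value could change. No paired analysis was possible because the labels do not tie libraries to plates. Within single runs, differences that moved by more than the replicate spread were, for contact against control, 6.24 (OAS1Y, second run) and 6.84 (OAS2, first run). For no contact against control they were 6.76 (OAS1X, last run), 5.72 and 6.12 (OAS1Y, second and last), and for contact against no contact 1.22 and 0.72 (OAS1X, first and last), 0.78 (OAS1Y, first) and 0.95 (OAS2, first). Log2 ratios within runs moved to 0.26 for OAS1X over OAS1Y (contact against no contact, last run). In the first run OAS1X over OAS2 gave 0.74 for contact and 0.47 for no contact against control, and OAS2 over OAS1Y reversed to 0.28 and 0.11. A pseudocount of 5 made OAS2 over OAS1Y -0.48 and -0.67 against control, past the threshold. Without both shallow contact libraries, OAS1X over OAS1Y was 1.01 for contact against control and 0.38 against no contact. OAS1X over OAS2 was then 1.07 against control. Each was no longer past the threshold (exact permutation, adjusted p = 0.0643). All of them had the smallest exact p that the remaining libraries allow, so the lost calls reflect the number of libraries and say nothing of the differences. Leaving out 1 library gave 0.78 to 1.05 for OAS1X over OAS2 (no contact against control). It gave -0.19 to 0.019 for OAS2 over OAS1Y (contact against control), reversed without control library BEEC.103, and 0.14 to 0.26 (contact against no contact), past the threshold without no contact library 90.

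Counts of genes called lower moved most, and the cause was not tested. For contact against control (726), 420 were lower without both shallow libraries, and 472 (without BEEC.83) to 981 (without no contact 90) with 1 library left out. For no contact against control (14) there were 33 with DESeq2, 52 with the run as a term and 3 (without BEEC.83) to 19 with 1 library left out. For contact against no contact (229) there were 344 with the run as a term, 111 in the 2 groups alone, 84 without both shallow libraries and 115 (without contact 97) to 350 (without no contact 109) with 1 left out, while higher calls (469) became 305 without both shallow libraries. Pathway genes called lower numbered 1 for contact against control, 3 with the run as a term, 2 in the 2 groups alone and 1 to 2 with 1 library left out, and 0 to 1 for contact against no contact. Over the single pathway and neighbour genes, 39 of 3450 alternative values lost a call and 34 gained one, with 0 reversed. Calls were lost most often for IRF3 in contact against no contact (15 of 23 alternatives) and SOCS1 in contact against control (13 of 23), and gained most often, in 5 of 23, for ILF2 in contact against control and for ISG20 in contact against control and against no contact. OAS2 in control rests on 8 to 15 reads a library, which limits its folds and ratios.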

Other observations

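IRF7, an interferon-induced transcription factor named here after its values were seen, was listed at 0 reads in all 15 libraries. RPH3A, the gene model beside OAS1Z, had 1 read over all libraries, in a contact library.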
